A study of Homo sapiens with 5 samples.

Results

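The comparison set 2 arrays of MHCC97H cells carrying added ACOT12 against 3 arrays of the same cells without added intact enzyme. MHCC97H is a human hepatocellular carcinoma line of high metastatic potential. The ACOT12 cells (n = 2) stably overexpressed the enzyme, the empty vector cells (n = 2) carried the vector alone, and the ACOT12 mutant cells (n = 1) overexpressed an altered ACOT12 whose changed residue the labels do not name. The cells of all 5 samples had been selected with puromycin for 1 week, so the controls share vector and drug with the ACOT12 cells. Nothing in the labels says whether arrays of one group came from separate cultures or clones, so variation between replicates could be purely technical. The fit of 2 against 3 arrays pooled the mutant with empty vector. Its SEs and p-values thus also rest on any difference between the mutant and empty vector arrays. All 5 arrays of the series entered. Of 25893 probes with 1 gene symbol, 11812 read at least 800 deposited intensity units on every array and were kept as bright, and they covered 9573 of 19090 genes. The probes were thus selected on brightness without regard to group, and the limit removes any gene that dropped under 800 on even 1 array. At its edge, the lowest reading of a GATA1 probe (800.8) kept it and that of a KAT2B probe (799.9) did not.

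ACOT12 is a cytosolic thioesterase of hepatocytes that splits acetyl-CoA into acetate and coenzyme A. Acetyl-CoA is the building block of fatty acids and sterols and the donor for histone acetylation, which opens chromatin for transcription. TWIST2 is a basic helix-loop-helix factor that pairs with E proteins, binds E-box motifs and promotes the epithelial-mesenchymal transition, in which epithelial cells lose adhesion and become motile. The comparison asks which transcripts differ with intact enzyme rather than with any overexpressed ACOT12 protein.

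The ACOT12 probe checked the labels. It read 4733 and 4859 deposited intensity units on the ACOT12 arrays, against 59.2 and 18.02 on the empty vector arrays and 4030 on the mutant array. Transgene transcript was thus high with both forms and lay near the floor of the arrays with empty vector, so the probe missed the brightness limit and ACOT12 mRNA does not separate the groups compared here. Over the bright probes, log2 values of the ACOT12 replicates correlated at 0.984, those of the empty vector replicates at 0.993, and an ACOT12 with an empty vector array at 0.988 to 0.994. The mutant array stood apart, at 0.974 to 0.983 with the other 4. Of the liver markers, KRT18, a keratin of hepatocytes, read 119691 to 151649 units on the 5 arrays and AFP, the fetal albumin homologue, 3380 to 3813. ALB (853 to 2842) was bright as well, whereas TTR, APOB and SERPINA1 were not. The immune, endothelial, fibroblast and erythroid marker lists had 3 of 12, 3 of 11, 2 of 11 and 2 of 9 members with a bright probe. Their part in any result was not tested.

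No gene passed the test. With limma over the 11812 bright probes, 0 probes (0%) were higher or lower with ACOT12 at an adjusted p under 0.05, and the lowest adjusted p was 0.9998. At an unadjusted p under 0.05 there were 104 higher (0.88%) and 88 lower probes (0.745%), together 1.63% of those tested. That share was smaller than the limit itself would give with no difference. Without scaling these counts were 135 and 37, with cyclic loess 99 and 61, and with median centring 93 and 268. With so few arrays, the smallest two-sided p an exact permutation test allows is 0.1. One array bore on the null count: without empty vector replicate 1, limma called 119 probes higher and 4 lower, together 1.04% of those tested. TWIST2 was not among them (limma, adjusted p = 0.446). That fit had 19.4 prior and 2 residual degrees of freedom, against 4.97 and 3 with all arrays. Its references were the second empty vector array and the mutant, the arrays with the lowest medians (700 and 616). All gene differences below are therefore descriptions of these 5 arrays.

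To find readings that went with intact enzyme, genes were taken whose 2 ACOT12 arrays lay both above or both below all 3 other arrays and whose ACOT12 mean differed by at least 0.3 log2 units, in that direction, from the empty vector mean and from the mutant array. Each gene was represented by its brightest probe. These doubly separated genes were chosen by their values in the contrast itself, so no test is given for them. They comprised 128 higher (1.34%) and 59 lower genes (0.616%), or 144 and 73 probes (1.22% and 0.618%). Both sets were dimmer than most bright genes. Their median intensity on the 3 other arrays was 2723 (higher) and 2216 (lower), against 5053 over all bright genes. Under the looser demand that the groups not overlap, 506 probes (4.28%) read higher and 998 (8.45%) lower, or 437 genes (4.56%) and 775 genes (8.1%). With shuffled labels, a share of 0.1 of the groupings would put both ACOT12 arrays above all others, and likewise below. With quantile normalization both observed shares lay under that. The balance rested on the scaling. Doubly separated probes numbered 170 higher and 27 lower without scaling, 153 and 53 with cyclic loess and 60 and 633 with median centring, which moved the median difference of all bright genes to -0.23 from -0.03. Non-overlapping probes numbered 612 and 583 without scaling, 558 and 820 with cyclic loess and 170 and 3320 with median centring. Of the 73 lower probes, 25 met the rule without scaling and 52 with cyclic loess, and all 73 did with median centring. Just inside the limit lay OAS2, 0.30 above empty vector and 0.33 above the mutant. Just outside lay RBM25, 0.298 log2 units below empty vector.

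**Figure D1:**
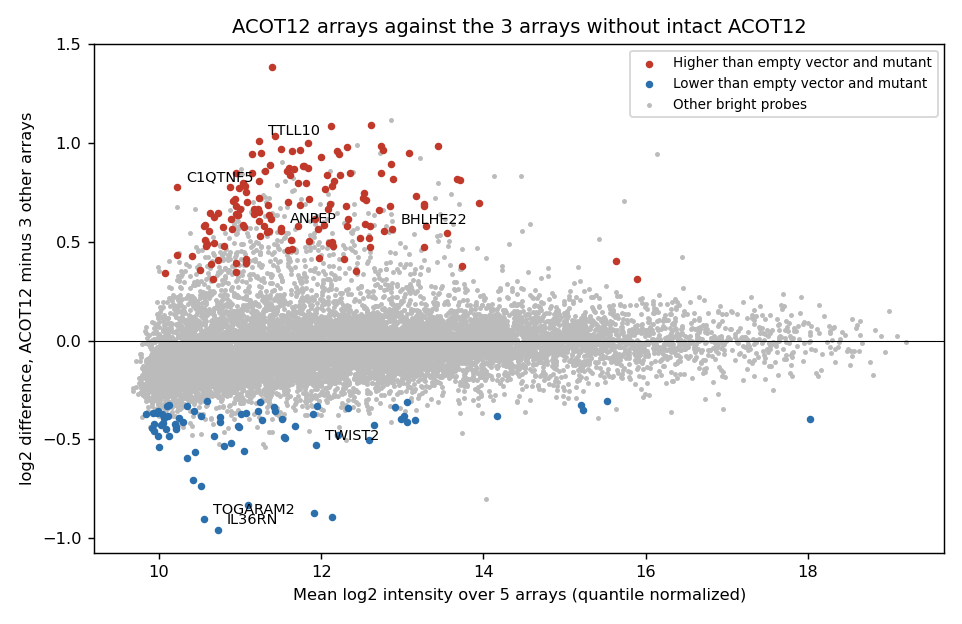
Each point is 1 of the 11812 bright probes. The x axis gives its mean log2 intensity over the 5 arrays and the y axis the log2 difference of the ACOT12 arrays from the 3 other arrays. Red and blue points are the 144 higher and 73 lower doubly separated probes, and the unlabelled red point at 1.39 is a SERINC5 probe.

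TWIST2 was among the lower genes. Its single bright probe read 3369 and 3067 deposited intensity units on the ACOT12 arrays, against 4483 and 4630 on the empty vector arrays and 4321 on the mutant array. Both ACOT12 arrays lay below all 3 others, and the mutant array lay close to empty vector. On the quantile normalized log2 scale the difference was -0.53 ± 0.14 (SE, 2 against 3 arrays), a 0.69-fold level, with an unadjusted p of 0.00472 and an adjusted p of 0.9998 by limma. Set against the references one at a time in a 3-group limma fit, TWIST2 read -0.53 ± 0.14 from empty vector (adjusted p = 1) and -0.53 ± 0.17 from the mutant (adjusted p = 0.226), with the single mutant array assumed to vary like the other groups. The mutant differed from empty vector by 0.01. TWIST2 had been picked as the marker of this comparison with earlier results of these data known, so its rank is no independent support.

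The windows from 250 bases before to 50 bases after the annotated gene start (RefSeq, GRCh38.p14) are shown for TWIST2 and for the genes with the smallest p on each side, IL36RN (lower) and TTLL10 (higher), since TWIST proteins bind E-boxes. Capitals mark each E-box, spelled CANNTG and read on both strands at once because the motif is its own reverse complement. They run 5′ to 3′ along the gene.
TWIST2 promoter, chr2:238847835-238848134, plus strand: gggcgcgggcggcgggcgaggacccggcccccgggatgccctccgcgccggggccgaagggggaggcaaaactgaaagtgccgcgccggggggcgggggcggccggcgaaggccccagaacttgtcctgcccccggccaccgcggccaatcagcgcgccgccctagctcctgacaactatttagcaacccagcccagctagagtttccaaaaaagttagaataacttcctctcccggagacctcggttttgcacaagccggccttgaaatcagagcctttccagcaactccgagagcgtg
IL36RN promoter, chr2:113058388-113058687, plus strand: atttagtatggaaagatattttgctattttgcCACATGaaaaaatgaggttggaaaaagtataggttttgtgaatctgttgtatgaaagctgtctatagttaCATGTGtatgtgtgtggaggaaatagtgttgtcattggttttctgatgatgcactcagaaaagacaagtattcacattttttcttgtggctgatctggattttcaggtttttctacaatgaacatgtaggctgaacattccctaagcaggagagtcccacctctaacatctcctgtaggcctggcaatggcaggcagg
TTLL10 promoter, chr1:1173630-1173929, plus strand: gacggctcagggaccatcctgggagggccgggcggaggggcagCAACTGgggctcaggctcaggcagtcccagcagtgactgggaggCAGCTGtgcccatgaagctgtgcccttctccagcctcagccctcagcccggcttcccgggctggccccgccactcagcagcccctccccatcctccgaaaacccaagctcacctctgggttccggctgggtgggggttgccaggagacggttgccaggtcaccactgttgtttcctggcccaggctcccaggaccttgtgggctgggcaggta
The TWIST2 window held 0 such motifs at 66.7% G and C, the IL36RN window 2 at 38.7%, and the TTLL10 window 2 at 68%. Of the lower genes matched to the table, 27 of 47 held an E-box (57.4%). Of the higher genes, 72 of 100 did (72%), against 4746 of 7928 bright genes (59.9%) and 68.9% of all 27305 windows. These are matches of letters, not sites.

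The lower readings included signalling and trafficking genes. IL36RN, which encodes the antagonist of the interleukin-36 receptor, read 1058 and 1385 intensity units with ACOT12, against 2157 and 2163 with empty vector and 2136 with the mutant. Its log2 difference was -0.96 ± 0.16, the lowest of all bright genes. A second IL36RN probe, not bright on every array, pointed the other way at 0.56 ± 0.31. TOGARAM2, a protein with microtubule-binding TOG domains, read 1075 and 1139 with ACOT12, against 1759 and 1912 with empty vector and 1996 with the mutant (-0.90 ± 0.15). In both genes every reference reading was at least 1759, above either ACOT12 reading.

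TBX6, a T-box factor of mesoderm, read 1450 and 1855 with ACOT12, against 2337 and 2698 with empty vector and 3209 with the mutant (-0.83 ± 0.20). COPG2, a subunit of the vesicle coat COPI, read 1314 and 933 with ACOT12, against 1887 and 1732 with empty vector and 1271 with the mutant (-0.71 ± 0.20). In deposited intensity the first COPG2 reading with ACOT12 lay above the mutant reading, so its separation from the mutant arose only after normalization. SNX12, a sorting nexin of endosomes, likewise read 4285 and 2382 with ACOT12, against 6664 and 6520 with empty vector and 4239 with the mutant (-0.90 ± 0.28). VIPR1, a receptor of vasoactive intestinal peptide, read 1699 and 1838 with ACOT12, against 2286 and 2222 with empty vector and 2827 with the mutant (-0.56 ± 0.17).

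A group of lower genes had a mutant reading within 0.05 log2 units of empty vector, as TWIST2 did. HINT3, a histidine triad hydrolase, read 1693 and 1337 with ACOT12, against 2176 and 2018 with empty vector and 1845 with the mutant (-0.53 ± 0.16). ZNF687, a zinc finger protein, read 5582 and 5310 with ACOT12, against 7098 and 7630 with empty vector and 6916 with the mutant (-0.42 ± 0.13). HOMER1, a scaffold of glutamate receptors, read 1036 and 925 with ACOT12, against 1263 and 1243 with empty vector and 1044 with the mutant (-0.45 ± 0.14). The HOMER1 mutant reading of 1044 stood only just above the first ACOT12 reading before normalization. The rest of the 12 lower genes with the smallest p were TSNAXIP1 (-0.73 ± 0.20), the phosphatase PPM1H (-0.54 ± 0.15) and the peptide hormone ADM2 (-0.49 ± 0.15). Over the 12, unadjusted p ran from 0.000341 to 0.0131. Of 2 other ADM2 probes, dim on all arrays, one read 0.37 ± 0.27 and the other -0.35 ± 0.18. Other dim probes read -0.51 ± 0.28 for HINT3, -0.28 ± 0.15 for HOMER1 and -0.07 ± 0.15 for TSNAXIP1. Leaving out ACOT12 replicate 2 brought COPG2 to -0.44 and HINT3 to -0.34.

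Among further lower genes, ENO2, the neuronal isoform of the glycolytic enolase, read 6469 and 7800 with ACOT12, against 9179 and 9175 with empty vector and 9357 with the mutant (-0.38 ± 0.14). BAG3, a cochaperone of HSP70, read 32359 and 32956 with ACOT12, against 39958 and 44322 with empty vector and 43317 with the mutant (-0.35 ± 0.13). RPA1, which coats single-stranded DNA at replication forks, read 33731 and 31082 with ACOT12, against 40774 and 41757 with empty vector and 42514 with the mutant (-0.33 ± 0.13). In these 3 genes the reference arrays lay close together and above both ACOT12 arrays. CDC25C, the phosphatase that starts mitosis, read 2230 and 2056 with ACOT12, against 2632 and 2552 with empty vector and 2589 with the mutant (-0.36 ± 0.14). SIK1, a salt-inducible kinase, read 2121 and 2313 with ACOT12, against 2627 and 2701 with empty vector and 2445 with the mutant (-0.31 ± 0.13). SLC27A1, a fatty acid transport protein, differed by -0.40 ± 0.18, with 2287 and 2864 with ACOT12, against 2870 and 3810 with empty vector and 3071 with the mutant.

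**Figure D2:**
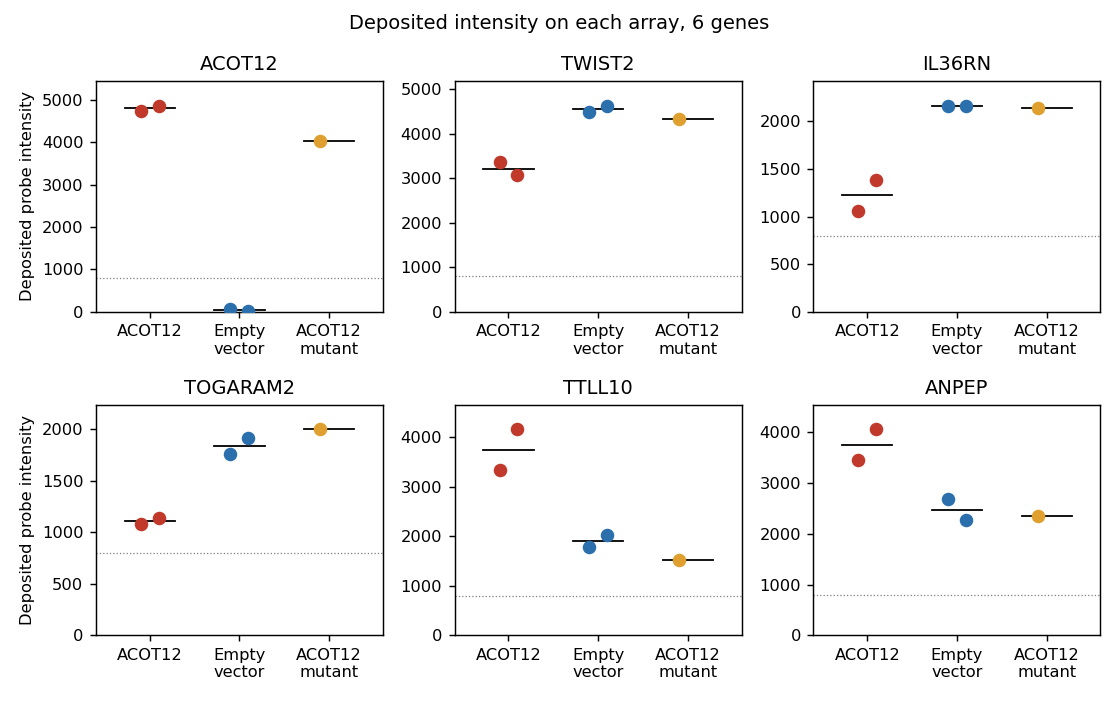
Deposited probe intensity (y axis, linear from 0) on each array for 6 genes. Points are arrays, bars are group means and the dotted line is the brightness limit of 800. The ACOT12 probe is high with both forms of the enzyme, while TWIST2, IL36RN and TOGARAM2 lie lower and TTLL10 and ANPEP higher on both ACOT12 arrays than on the 3 others.

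On the higher side, TTLL10, a member of the tubulin tyrosine ligase-like family, read 3341 and 4151 intensity units with ACOT12, against 1776 and 2031 with empty vector and 1517 with the mutant. Its log2 difference was 1.01 ± 0.17, a 2.02-fold level. C1QTNF5, a secreted C1q and TNF related protein, read 1905 and 1568 with ACOT12, against 922 and 939 with empty vector and 898 with the mutant (0.78 ± 0.16). Another C1QTNF5 probe, dim on 1 array, read 964 and 1118 with ACOT12, against 1080 and 930 with empty vector and 475 with the mutant (0.20 ± 0.27), so there ACOT12 and empty vector overlapped. OR1J4, an olfactory receptor, read 3602 and 3368 with ACOT12, against 2066 and 2143 with empty vector and 2224 with the mutant (0.64 ± 0.15). In these 3 genes the mutant lay within 0.3 log2 units of empty vector.

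ANPEP, the membrane aminopeptidase N found on bile canaliculi, read 3456 and 4049 with ACOT12, against 2682 and 2260 with empty vector and 2356 with the mutant (0.57 ± 0.14). OASL, an interferon-induced antiviral protein, read 6326 and 5583 with ACOT12, against 4525 and 4340 with empty vector and 4293 with the mutant (0.41 ± 0.14). H2BC5, a histone H2B gene, read 3462 and 4472 with ACOT12, against 2902 and 2665 with empty vector and 2683 with the mutant (0.46 ± 0.15). A second H2BC5 probe read 2106 and 3075 with ACOT12, against 1687 and 2017 with empty vector and 2879 with the mutant, so there the mutant overlapped the ACOT12 arrays. Without ACOT12 replicate 2 the difference of the first H2BC5 probe was 0.285. Histone genes of 1 family are near-identical, and these probes may share targets.

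The other 6 of the 12 higher genes with the smallest p had a mutant reading over 0.3 log2 units below empty vector. They were BHLHE22 (0.56 ± 0.15), a basic helix-loop-helix factor of neurons, the semaphorin SEMA4D (0.65 ± 0.19), the neuropeptide precursor NPVF (0.64 ± 0.20), TCP11X2 (0.58 ± 0.19), the liprin PPFIA4 (0.72 ± 0.24) and PNMT (0.57 ± 0.20), which makes adrenaline. PPFIA4 shows their pattern, with 2425 and 3066 intensity units with ACOT12, against 2216 and 1554 with empty vector and 1048 with the mutant. Dim probes of these genes read 0.35 ± 0.37 and -0.08 ± 0.20 for BHLHE22, 0.14 ± 0.22 for SEMA4D and 0.10 ± 0.18 for PPFIA4. In the bright PPFIA4 probe the first empty vector array lay nearer the ACOT12 arrays than the second did, and the mutant lay lowest. Over the 12 higher genes, unadjusted p ran from 0.000286 to 0.0188. The adjusted p of each of the 24 genes was 0.9998 (limma).

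**Figure D3:**
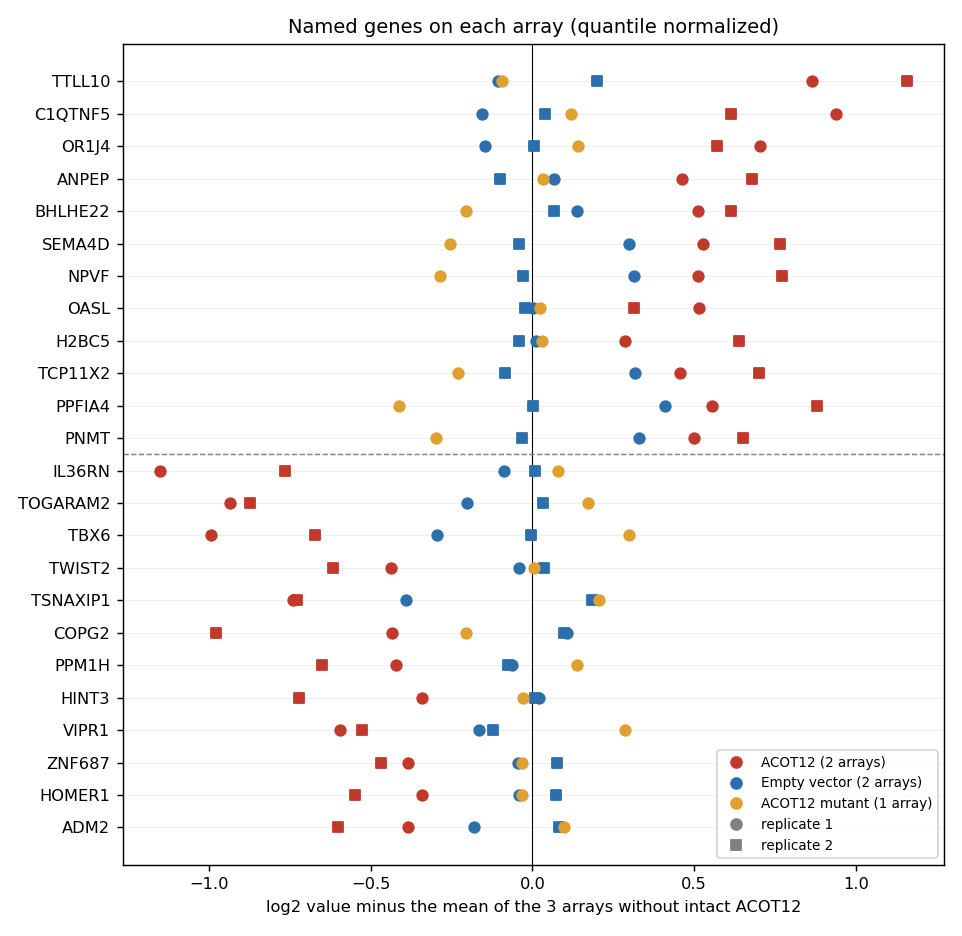
Quantile normalized log2 value of each array minus the mean of the 3 arrays without intact ACOT12 (x axis) for the 12 higher genes (above the dashed line) and the 12 lower genes. Colours mark the groups and shapes the replicate numbers. TWIST2, HINT3, ZNF687, HOMER1, OASL and H2BC5 have the 3 reference arrays close together, whereas in SEMA4D, NPVF, TCP11X2, PPFIA4 and PNMT they are spread out with the mutant lowest.

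The mutant array divided the higher from the lower genes. Of the 59 lower genes, 49 (83.1%) had a mutant reading within 0.3 log2 units of the empty vector mean, against 6440 of all 9573 bright genes (67.3%). Of the 128 higher genes, only 19 (14.8%) did, while in 108 the mutant lay at least 0.3 below empty vector and in 1 at least 0.3 above. The limit of 0.3 for the mutant was set after the values were seen. The median mutant reading was 0.73 log2 units below empty vector in the higher genes, 0.07 above in the lower genes and 0.01 above over all bright genes. For the higher genes the median difference from the mutant was 1.15 and that from empty vector 0.41, whereas for the lower genes they were -0.45 and -0.36. These differences share the ACOT12 arrays and were set by the selection, so they are descriptions.

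The empty vector replicates also differed within the higher genes. Replicate 1 read above replicate 2 in 121 of 128 (median difference 0.50), and replicate 2 lay between replicate 1 and the mutant in 115 (89.8%). In the lower genes replicate 1 read above replicate 2 in 23 of 59, and over all bright genes in 42.2%, with a median of -0.03. ADAMTSL4, a secreted protein of fibrillin matrices, was the highest of the 128 at 1.09 ± 0.49. It read 9873 and 9786 intensity units with ACOT12, against 8830 and 5322 with empty vector and 1935 with the mutant. COL1A1, the main chain of type I collagen, read 3882 and 3905 with ACOT12, against 3738 and 2288 with empty vector and 891 with the mutant (0.89 ± 0.44). MYD88, the adaptor of Toll-like receptors, read 18569 and 18818 with ACOT12, against 16726 and 11032 with empty vector and 6564 with the mutant (0.81 ± 0.33). In each of these, ACOT12 and the first empty vector array were close and most of the difference came from the other 2 arrays. Deposited array medians also fell from empty vector replicate 1 (805) to replicate 2 (700) to the mutant (616), against 816 and 825 with ACOT12. The part of that order among the reference arrays in the higher readings was not tested. Without empty vector replicate 2 there were 30 higher and 108 lower doubly separated probes, and without replicate 1 there were 408 and 174.

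The 19 higher genes with a mutant near empty vector held TTLL10, C1QTNF5, OR1J4, ANPEP, OASL and H2BC5 from above, with OAS2, a sensor of double-stranded RNA, COL7A1, the collagen of anchoring fibrils, FABP3, a fatty acid binding protein, and the unconventional myosin MYO7A among the rest. Their differences ran from 0.31 to 1.01 (median 0.41). Those of the 49 lower genes ran from -0.96 to -0.31 (median -0.40). Besides TWIST2, IL36RN and TOGARAM2, these held the calpain inhibitor CAST (-0.40 ± 0.14), the homeobox factor PBX3 (-0.37 ± 0.14) and PIK3CB, a catalytic subunit of PI3-kinase (-0.33 ± 0.14). Another was the receptor TLR4 (-0.33 ± 0.16), whose second ACOT12 reading of 1090 lay above the mutant reading of 1075 before normalization.

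**Figure D4:**
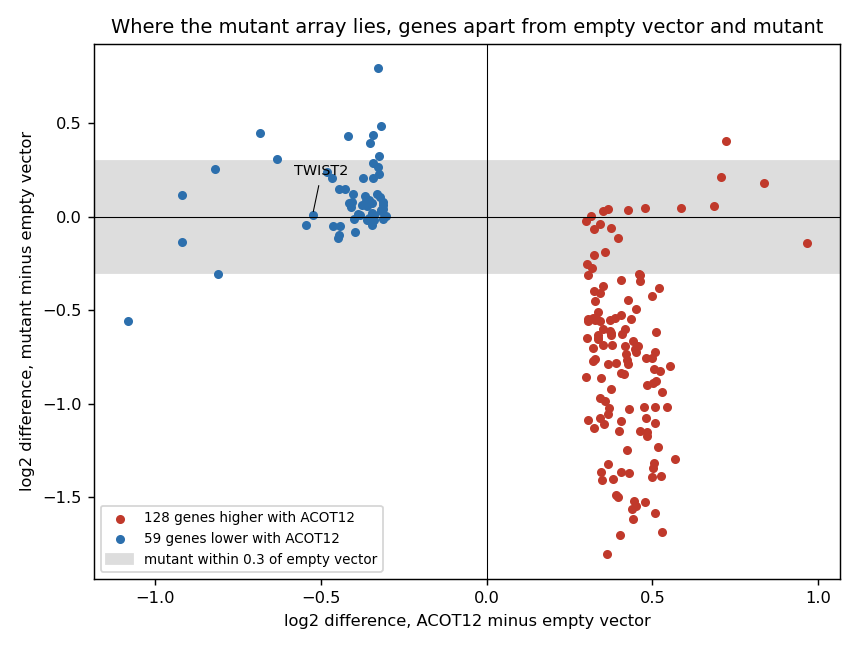
Each point is 1 doubly separated gene, with its log2 difference between ACOT12 and empty vector on the x axis and between mutant and empty vector on the y axis. The grey band marks a mutant reading within 0.3 of empty vector. It holds 49 of the 59 lower genes (blue) and 19 of the 128 higher genes (red), and most red points lie below it.

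Further probes of the same genes gave a reading that the choice of genes did not use, though on the same RNA. A second bright probe existed for 4 of the 59 lower genes, and all 4 read lower (median -0.20). It existed for 11 of the 128 higher genes, of which 5 read higher and 6 lower (median -0.05). Over all 2026 genes with 2 or more bright probes, the second read higher in 675 and lower in 1346 (median -0.06), and it matched the sign of the first in 56.3%. Lower second readings were thus common among all bright genes, and the few second probes do not set the higher and lower genes apart. HNRNPA0, an RNA-binding protein, was the 1 gene whose second probe was also doubly separated. Its brightest probe read 7670 and 6929 with ACOT12, against 9626 and 10176 with empty vector and 8960 with the mutant (-0.41 ± 0.14). Its second probe read 5144 and 5021 with ACOT12, against 6454 and 6675 with empty vector and 8250 with the mutant (-0.50 ± 0.16), and another bright probe read -0.07 ± 0.16. SERINC5, a serine incorporator and restriction factor of retroviruses, showed the opposite and was singled out after its values were seen. One probe read 4472 and 5236 with ACOT12, against 1463 and 1841 with empty vector and 2137 with the mutant, at 1.39 ± 0.22 the highest difference of all bright probes. The brighter SERINC5 probe read 0.00 ± 0.20. For TTLL10, the second probe was not bright and read 0.14 ± 0.19.

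Among partners of TWIST2 and regulators of the transition, 8 of 23 listed genes were bright, of which 3 read higher, 5 lower and TWIST2 alone was doubly separated. Their median was -0.09, against -0.03 over all 9573 bright genes, of which 39.4% read higher and 60.6% lower. The share that read higher was 48.8% without scaling, 43.6% with cyclic loess and 9.9% with median centring, so the counts of list members on each side hold for quantile normalization alone. ID1, an inhibitor of helix-loop-helix factors, read 169408 and 180343 units with ACOT12, against 225112 and 238209 with empty vector and 175984 with the mutant (-0.25 ± 0.17). It was thus as low with the mutant as with ACOT12. TCF12, an E protein, read -0.21 ± 0.17 and SNAI1, a zinc finger repressor of CDH1, 0.09 ± 0.14. TWIST1, SNAI2, ZEB2, CDH1 and EPCAM read under 800 units on at least 1 array. CDH1, the epithelial cadherin that TWIST factors repress, read 576 and 696 units with ACOT12, against 665 and 622 with empty vector and 501 with the mutant. CDH2, the neural cadherin gained in the transition, read 17207 and 15619 with ACOT12, against 14745 and 16020 with empty vector and 13499 with the mutant. The ACOT12 readings of CDH1 and CDH2 overlapped those of empty vector. In the limma fit over all probes with 1 gene symbol VIM, the mesenchymal filament protein, read -0.12 ± 0.19, FN1, fibronectin, -0.08 ± 0.15, and ZEB1 0.02 ± 0.18 or, by its second probe, -0.18 ± 0.16. EPCAM read 0.44 ± 0.23, TWIST1 0.37 ± 0.37, SNAI2 -0.05 ± 0.35 and ZEB2 0.08 ± 0.20, none past the threshold.

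Junction and matrix genes were read the same way. Of 18 bright epithelial adhesion genes 8 read higher and 10 lower (median -0.04) and 0 were doubly separated. ESRP2, an epithelial splicing regulator, read -0.28 ± 0.15 and KRT8 -0.29 ± 0.16. Of 22 bright mesenchymal and matrix genes 15 read higher and 7 lower (median 0.08), and COL1A1 alone was doubly separated. The contractile actin genes gave 6 higher and 14 lower of 20 (median -0.03). In that list ZYX, a focal adhesion protein, read -0.34 ± 0.19.

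In the metabolism of acetyl-CoA, on which the enzyme acts, 0 of 22 bright acetyl-CoA and acetate genes were doubly separated, and 5 read higher and 17 lower (median -0.04). DLAT, the acetyltransferase of pyruvate dehydrogenase, read 2999 and 2524 units with ACOT12, against 3042 and 2951 with empty vector and 3044 with the mutant (-0.20 ± 0.15). Of 19 fatty acid synthesis genes 2 read higher and 17 lower (median -0.06). FASN, the fatty acid synthase, read 60453 and 80874 with ACOT12, against 78727 and 91659 with empty vector and 101094 with the mutant (-0.36 ± 0.17), so the second ACOT12 array overlapped empty vector. Sterol synthesis gave 7 higher and 11 lower of 18 (median -0.07). Among these DHCR7, the last enzyme of cholesterol synthesis, read 28981 and 24979 with ACOT12, against 33617 and 31424 with empty vector and 35655 with the mutant (-0.29 ± 0.15), and MSMO1, a sterol methyl oxidase, read -0.36 ± 0.18. Fatty acid oxidation gave 8 higher and 13 lower of 21 (median -0.05). Histone acetylation genes gave 12 higher and 15 lower of 27 (median -0.03) with 0 doubly separated. EP300, a histone acetyltransferase, read 2378 and 3388 with ACOT12, against 2832 and 1952 with empty vector and 1453 with the mutant (0.40 ± 0.24).

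The interferon and histone lists had medians above that of all bright genes with all 5 arrays, as did other lists. Relative to all bright genes, the mesenchymal and matrix list stood at 0.11. The immune, endothelial and fibroblast marker lists stood at 0.11, 0.16 and 0.50. Of the 33 lists, 11 had a median above 0 and 22 below. Of 18 bright interferon response genes 13 read higher and 5 lower (median 0.07), and OASL and OAS2 were doubly separated. PARP9, an ADP-ribosyltransferase family member of the antiviral response, read 1386 and 1155 with ACOT12, against 854 and 874 with empty vector and 935 with the mutant (0.35 ± 0.18). Of 10 bright replication-dependent histones 9 read higher and 1 lower (median 0.15). Relative to all bright genes these medians were 0.10 and 0.18, and with the 3 other scalings they lay between 0.085 and 0.095 and between 0.174 and 0.213. Single arrays moved them more. The interferon median was -0.005 without ACOT12 replicate 2 and 0.274 without ACOT12 replicate 1, and the histone median 0.081 without empty vector replicate 1 and 0.339 without the mutant array. H1-2, a linker histone, read 1977 and 2661 with ACOT12, against 1011 and 1519 with empty vector and 1780 with the mutant (0.64 ± 0.29). In both PARP9 and H1-2 the mutant lay above both empty vector arrays.

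Growth and stress lists held single separated members. Over all lists, 13 of 624 distinct bright genes were doubly separated, against 1.34% higher and 0.616% lower of all 9573 bright genes. Single members therefore do not set these lists apart. Mitosis genes gave 17 higher and 23 lower of 40 (median -0.03) with CDC25C the 1 doubly separated, and DNA replication 14 and 21 of 35 (median -0.03) with RPA1. Heat shock genes gave 6 and 19 of 25 (median -0.04) with BAG3. Glycolysis gave 8 and 10 of 18 (median -0.01) with ENO2, and hypoxia 10 and 8 of 18 (median 0.02) with none. TGF-beta and BMP genes gave 7 and 16 of 23 (median -0.08). There SKIL, a corepressor of SMAD factors, read 4021 and 3077 with ACOT12, against 4809 and 4018 with empty vector and 4037 with the mutant (-0.33 ± 0.17). The first ACOT12 reading of SKIL was level with the second empty vector and the mutant reading before normalization. INHBB, a subunit of activin B, read 30212 and 30291 with ACOT12, against 24792 and 23531 with empty vector and 26482 with the mutant (0.32 ± 0.14). Wnt genes gave 4 and 22 of 26 (median -0.04), where NKD1, a feedback inhibitor, was higher by 0.71 ± 0.33 with a mutant reading 1.03 below empty vector. NRF2, ATF4, p53, cytokine, aryl hydrocarbon receptor, respiratory, ribosomal and proteasome genes had 0 doubly separated members and medians from -0.06 to 0.03. Relative to all bright genes, the median of the contractile, histone acetylation, plasma protein, mitosis, replication, NRF2, glycolysis, respiratory, ribosomal and proteasome lists took either sign depending on the scaling.

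Liver genes read in both directions. Of 16 bright plasma protein genes 7 read higher and 9 lower (median -0.09). SERPINC1, antithrombin, was doubly separated at 0.72 ± 0.34, with 5214 and 4886 units with ACOT12, against 4821 and 3106 with empty vector and 1668 with the mutant. ITIH2, a hyaluronan-binding plasma protein, read 11729 and 10720 with ACOT12, against 17658 and 15597 with empty vector and 13747 with the mutant (-0.47 ± 0.16). Of 11 bright hepatocyte transcription factors 5 read higher and 6 lower, and GATA6, an endodermal factor, read -0.30 ± 0.14. Progenitor and tumour markers gave 4 higher and 12 lower of 16. KRT7, a biliary keratin, read 2078 and 3352 with ACOT12, against 1453 and 1251 with empty vector and 3216 with the mutant, so it was high with both forms of the enzyme.

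Markers of other cell types gave the following sums. Summed deposited intensity of 11 fibroblast markers was 10138 and 9611 with ACOT12, against 9725 and 7145 with empty vector and 5695 with the mutant. For 12 immune markers it was 23059 and 27307 with ACOT12, against 23575 and 22525 with empty vector and 22147 with the mutant. For 9 erythroid markers it was 6473 and 5637 with ACOT12, against 6159 and 4418 with empty vector and 3821 with the mutant. For 11 endothelial markers it was 24848 and 29953 with ACOT12, against 22022 and 19971 with empty vector and 28247 with the mutant. The fibroblast sum of the first empty vector array lay between those of the ACOT12 arrays, and the mutant sum was lowest, as it was for COL1A1, its member in the higher genes. Within these lists the levels differed widely. PTPRC, LYZ, CD3E and COL3A1, which mark leukocytes, myeloid cells, T cells and fibroblasts, read at most 116 units on any array. CD3D, another T cell marker, read 8480 and 10915 with ACOT12, against 9504 and 8864 with empty vector and 6198 with the mutant. CD68, a macrophage marker, read 9213 and 10027 with ACOT12, against 8334 and 8177 with empty vector and 11186 with the mutant. CD14, a monocyte marker, read 2691 and 3543 with ACOT12, against 2881 and 3251 with empty vector and 2507 with the mutant. LUM, a fibroblast proteoglycan, read 4552 and 4004 with ACOT12, against 4436 and 3742 with empty vector and 3818 with the mutant. In these 4 genes the ACOT12 readings overlapped those of the other arrays. Of the 2 bright erythroid markers, HBB differed by 0.08, and AHSP, a chaperone of alpha-globin, was doubly separated and lower (-0.45 ± 0.18). In deposited intensity the second ACOT12 reading of AHSP (1238) lay above the second empty vector (1154) and the mutant reading (1235). Its separation thus arose only after normalization.

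**Figure D5:**
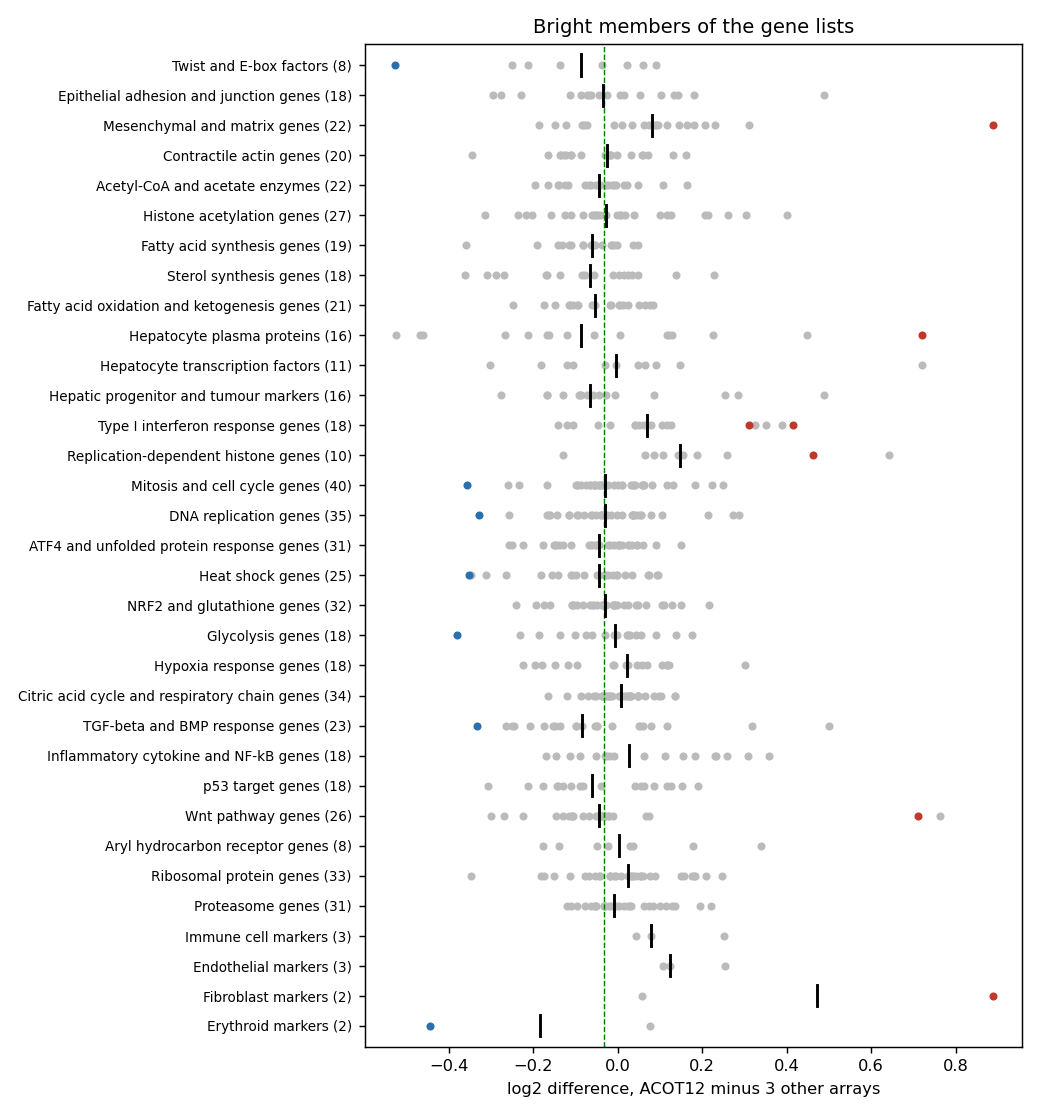
Log2 difference of the ACOT12 arrays from the 3 other arrays (x axis) for the bright members of each gene list, with their number in brackets. Black bars are list medians and the green dashed line is the median of all bright genes (-0.03). Red and blue points are the 13 of 624 distinct members that were higher or lower than empty vector and mutant alike. Over all bright genes, 1.34% were higher and 0.616% lower in that way.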

How the data were processed

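Each of the 5 MHCC97H samples was hybridised to its own array in 1 colour, Cy5, per the labels' protocols. The table deposited by the authors holds a linear intensity per probe, a unit read from the values. How the authors scanned, corrected and scaled it was not given in these sources, and no detection flags were used. Array medians were 816 and 825 on the ACOT12 arrays, 805 and 700 on empty vector replicates 1 and 2, and 616 on the mutant array. The labels give no batch. Precision is limited by how few arrays there are.

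Of 28264 probes, 25893 had 1 gene symbol in the platform annotation, 0 had several and 2371 none. All 25893 matched a current gene table by gene identifier, which altered 0 symbols. Intensities below 0 were set to 0, 1 was added, and log2 values were quantile normalized over all probes, so differences are on the log2(intensity + 1) scale. Readings below 0 numbered 310 and 911 on the empty vector arrays, 1 and 0 on the ACOT12 arrays and 0 on the mutant array. The part of this imbalance in the results was not tested. Probes with 1 symbol and at least 800 on all 5 arrays were fitted with limma 3.58.1 in R 4.3.3 (lmFit, eBayes without trend, no covariates), ACOT12 against the other arrays, with 3 residual and 4.97 prior degrees of freedom. P-values are two-sided and Benjamini-Hochberg adjusted over 11812 probes and called under 0.05. Each ± beside a log2 difference is a moderated SE. A 3-group fit (2 residual degrees of freedom) gave differences from empty vector and mutant alone.

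Named genes are the 12 doubly separated genes with the smallest p per direction, the 4 bright genes at most that had the lowest p in each of 33 lists (911 genes), ACOT12, TWIST2 and 10 fixed genes of the transition. Others named were chosen after their values were seen. Members and lists were chosen with earlier results of these data known. The procedure was tested on simulated data with independent noise, and its recovery of differences of the size described is not given here.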

Additional observations from a re-analysis of the deposited data

Results flagged for a closer look

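The ACOT12 probe lay outside the probes compared because its empty vector readings missed the brightness limit. It averaged 4796 ± 88.8 deposited intensity units on the ACOT12 arrays (SD, n = 2), against 38.6 ± 29.1 (SD, n = 2) on the empty vector arrays and 4030 on the single mutant array, a signal in data that the comparison did not use. The empty vector readings lay near the floor of the arrays, so no fold against them is given. In the 3-group limma fit over all probes with 1 gene symbol, ACOT12 and mutant cells differed by 0.16 ± 0.34 log2 units (adjusted p = 0.828).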

How the results depend on the processing

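TWIST2 read lower in all 21 alternatives run, from -0.70 with median centring to -0.44 without ACOT12 replicate 2, and passed in none (adjusted p 0.226 to 1). In TWIST2 and the 23 other genes with the smallest p, both ACOT12 arrays lay beyond all 3 others. Leaving out an array or changing the filter, reference or model could thus not reverse them. Only the scalings and the averaging of probes could have done so. Of these 24 genes, 21 were still doubly separated without scaling, 20 with median centring and 24 with cyclic loess. The 23 kept their direction in 468 of 468 alternatives, though COPG2, H2BC5 and HINT3 shrank by over 1.5 times without ACOT12 replicate 2. Those past the threshold were 6, all without empty vector replicate 1 (TTLL10, PPFIA4, IL36RN, TOGARAM2, TBX6 and TSNAXIP1, lowest adjusted p = 0.0192). Probes past the threshold numbered 0 in each direction except there (leaving out 1 array, 0 to 119 higher and 0 to 4 lower). At unadjusted p, the replicate number as a block gave 26 higher and 62 lower probes. The labels do not say whether arrays with the same number share more than that number. Over probes, the replicate 1 deviations of ACOT12 and empty vector from their group means correlated at 0.31. The block changed no call, with TWIST2 at -0.52. Doubly separated probes (144 higher, 73 lower) numbered 60 and 633 with median centring, 249 and 144 with a limit of 400, 66 and 33 with 1600, and 762 and 700 without a filter. By mean intensity the higher numbered 277. The lower numbered 27 without scaling and 43 when bright probes alone were normalized. Leaving out 1 array gave 30 to 439 higher and 108 to 466 lower. Of list medians, 485 of 560 alternatives stayed within the spread of arrays around 2 means, that of ACOT12 and that of the 3 other arrays. That spread includes any difference of the mutant from empty vector, so it is not one between replicates alone. The cause of these shifts was not tested. With 2 arrays against 3, small differences could not be resolved.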
